A study of Mus musculus with 6 samples.

Results

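Glycolysis splits glucose into pyruvate through a chain of cytosolic enzymes and yields ATP. In the stage up to fructose bisphosphate the cell spends ATP to phosphorylate the sugar, and in the stage that starts with GAPDH it recovers ATP and NADH. Lactate dehydrogenase then turns pyruvate into lactate and restores NAD+. Adult hepatocytes mainly use glucokinase and the liver form of pyruvate kinase, whereas HK1, PFKP and PKM are the forms better known from other tissues, proliferating cells and tumours.

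The enzymes of this pathway other than HK2 were examined in RNA-seq data of liver primary cells from WT mice and from Alb-Cre;UBR7fl/fl mice (UBR7-KO below). They were taken as 10 transcripts chosen by identifier, 1 for each of HK1, GPI, PFKL, PFKP, GAPDH, PGK1, PGAM1, ENO1, PKM and LDHA, out of 208848 in the deposited table. All 10 identifiers were found, each in 1 row. In the UBR7-KO mice, Cre recombinase driven by the albumin promoter deletes Ubr7 in cells where that promoter has been active. Ubr7 encodes an E3 ubiquitin ligase. Which cells of the liver keep the gene was not checked here. According to the methods of the study the mice were male, 8 weeks old and of C57BL/6 background, and the cells were freshly digested from liver, while the sample labels describe cultured, conditionally immortalized cells.

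The experiment comprised 3 WT and 3 UBR7-KO samples, but the table gives 1 FPKM column for each genotype, named as a mean value. FPKM counts the fragments of a transcript relative to its length and to the sequencing depth. Each value below is the deposited value of that column with no SD, the spread between replicates is unknown, and p-values are not given. The steps between the lowest values of each column fitted totals of 24495956 reads for WT and 14197506 for UBR7-KO. At these totals both values of each of the 10 transcripts equal a whole number of reads. The transcript length was searched for in this step until both values fitted, and was not checked against an annotation. How often such a search fits by chance was not computed, so this fit is no check of the totals. Although the header calls the columns means, most of their lowest values lie on the steps of a single total, as the reads of 1 library or of pooled libraries would. Which of these the columns hold cannot be told apart. The reads behind each transcript were recovered as the smallest whole numbers that give its values, and other totals could give other reads. A 95% interval of the ratio between genotypes was computed from these reads by the exact Clopper-Pearson method. It covers counting error only and says nothing of the spread between mice.

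The identifiers are human Ensembl transcripts, although the samples are labelled as mouse cells. All 208848 identifiers are of the human form and 0 of the mouse form. That the reads come from mouse cells is taken from the labels and the methods, and their species was not checked. How completely mouse reads align to human transcripts was not tested. The level of Ubr7 and of markers of hepatocytes or other liver cells was not analysed here, because the tables used do not pair their symbols with these identifiers. The genotype of the columns and the cell type were therefore not checked against the data. In bulk RNA, fewer cells of a type and less RNA per cell cannot be told apart.

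The glycolysis transcripts had nearly the same levels in both genotypes. Their differences between UBR7-KO and WT ranged from -0.05 for GPI to 0.22 for PKM on the log2(FPKM + 1) scale, with a median of 0.07. As deposited, 7 of the 10 were higher in UBR7-KO and 3 were lower, while 39.9% of all transcripts compared and 52.3% of those with at least 10 FPKM in both genotypes were higher. The fold limit was a difference of 2 on this scale, applied to the 116955 transcripts that reached 1 FPKM in WT, in UBR7-KO or in both. All 10 glycolysis transcripts were among them. None of the 10 passed it in either direction, against 0.077% of all transcripts compared that were higher and 0.887% that were lower by at least as much. At a limit of 1 the number was again 0 of 10, beside 0.866% of all transcripts higher and 4.8% lower. With so few transcripts past these limits in the whole table, 0 of 10 is no result particular to these enzymes.

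**Figure D1:**
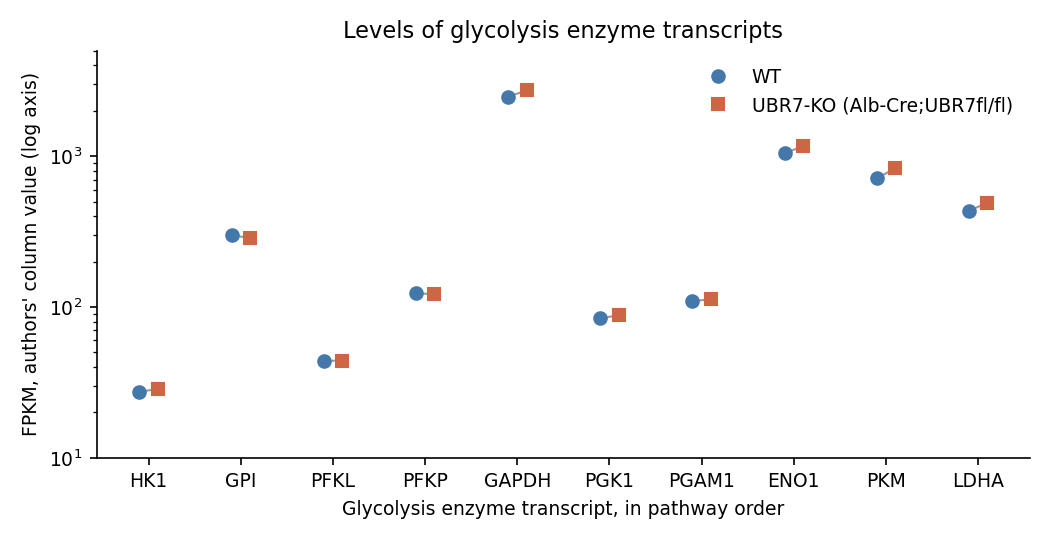
FPKM (log axis) of each glycolysis enzyme transcript in WT (circles) and UBR7-KO (squares), 1 value per genotype with no error bar. The levels run from 27.3 for HK1 to 2475 for GAPDH in WT, and the order of the 10 is the same in both genotypes.

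The transcripts are described along the pathway, each with the position of the mouse gene of the same name in GRCm38 (GENCODE M21). These positions are not coordinates of the human identifiers, for which the table gives none. All 10 mouse genes are protein-coding, and they lie on 8 chromosomes.

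HK1, a hexokinase that phosphorylates glucose as the entry step (ENST00000359426.6_1, mouse Hk1, chr10:62268855-62379908, minus strand), had 27.3 FPKM in WT and 28.7 FPKM in UBR7-KO. It was the lowest of the 10 in both genotypes. The ratio of UBR7-KO to WT was 1.05, and its interval of 0.982 to 1.12, from 2415 and 1468 recovered reads, included equal levels.

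GPI, which converts glucose phosphate to fructose phosphate (ENST00000356487.10_3, mouse Gpi1, chr7:34201330-34230336, minus strand), had 298 FPKM in WT and 288 FPKM in UBR7-KO. The ratio was 0.965 with an interval of 0.940 to 0.992, from 14888 and 8329 recovered reads. Of the 10 transcripts it was the only one whose interval lay below equal levels, and after median centring its log2 difference was 0.04 instead of -0.05.

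PFKL and PFKP encode the liver and platelet forms of phosphofructokinase, the main control point of the pathway. PFKL (ENST00000349048.8_1, mouse Pfkl, chr10:77986947-78010083, minus strand) had 44.1 FPKM in WT and 44.0 FPKM in UBR7-KO, a ratio of 1.00 with an interval of 0.943 to 1.06. PFKP (ENST00000381125.8_1, mouse Pfkp, chr13:6579768-6648777, minus strand) had 124 FPKM in WT and 121 FPKM in UBR7-KO, a ratio of 0.977 with an interval of 0.942 to 1.01. The PFKP transcript thus had 2.81 times the FPKM of the PFKL transcript in WT and 2.75 times in UBR7-KO. Whether mouse reads align equally well to both human transcripts was not tested. The ratio of these transcripts differed little between genotypes.

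GAPDH, which oxidises glyceraldehyde phosphate and produces NADH (ENST00000229239.9_1, mouse Gapdh, chr6:125161715-125166467, minus strand), had the highest level of the 10, with 2475 FPKM in WT and 2730 FPKM in UBR7-KO. The ratio was 1.10 with an interval of 1.09 to 1.11, from 113698 and 72663 recovered reads. The direction depends on the scaling, since the log2 difference was 0.14 as deposited and -0.09 after quantile normalization, which gives both columns the same distribution. GAPDH has many processed pseudogenes in mammalian genomes, and how the authors' counting treated reads shared with such copies is not given in the sources used here.

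PGK1, which forms ATP from bisphosphoglycerate (ENST00000373316.4_1, mouse Pgk1, chrX:106187100-106203699, plus strand), had 84.1 FPKM in WT and 88.2 FPKM in UBR7-KO. The ratio was 1.05 with an interval of 1.02 to 1.08. PGAM1, the mutase that moves the phosphate group of phosphoglycerate (ENST00000334828.5_1, mouse Pgam1, chr19:41911923-41918660, plus strand), had 110 FPKM in WT and 112 FPKM in UBR7-KO. Its ratio was 1.02 with an interval of 0.979 to 1.07, which included equal levels. PGAM1 was close in level to PFKP, which had 1.13 times its FPKM in WT and 1.08 times in UBR7-KO, so that their order cannot be called without replicates.

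ENO1, the enolase that makes phosphoenolpyruvate (ENST00000234590.10_3, mouse Eno1, chr4:150236721-150248879, plus strand), was the second most abundant, with 1043 FPKM in WT and 1166 FPKM in UBR7-KO. The ratio was 1.12 with an interval of 1.10 to 1.13. Its log2 difference was 0.16 as deposited but only 0.024 after quantile normalization.

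PKM, the pyruvate kinase of most tissues other than adult liver (ENST00000335181.9_4, mouse Pkm, chr9:59656368-59679375, plus strand), had the largest difference of the 10 as deposited and after median centring, while after quantile normalization that of LDHA was larger. It had 713 FPKM in WT and 831 FPKM in UBR7-KO, a ratio of 1.17 with an interval of 1.15 to 1.18, from 40472 and 27333 recovered reads. The value was 16.5% higher in UBR7-KO. Among the 48003 transcripts with at least 10 FPKM in both genotypes, 45.7% differed by more than PKM did on the log2(FPKM + 1) scale, in either direction.

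LDHA, the lactate dehydrogenase subunit that favours lactate formation (ENST00000422447.7_1, mouse Ldha, chr7:46841475-46855627, plus strand), had 436 FPKM in WT and 489 FPKM in UBR7-KO. The ratio was 1.12 with an interval of 1.10 to 1.15. PKM had 1.64 times the FPKM of LDHA in WT and 1.70 times in UBR7-KO.

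**Figure D2:**
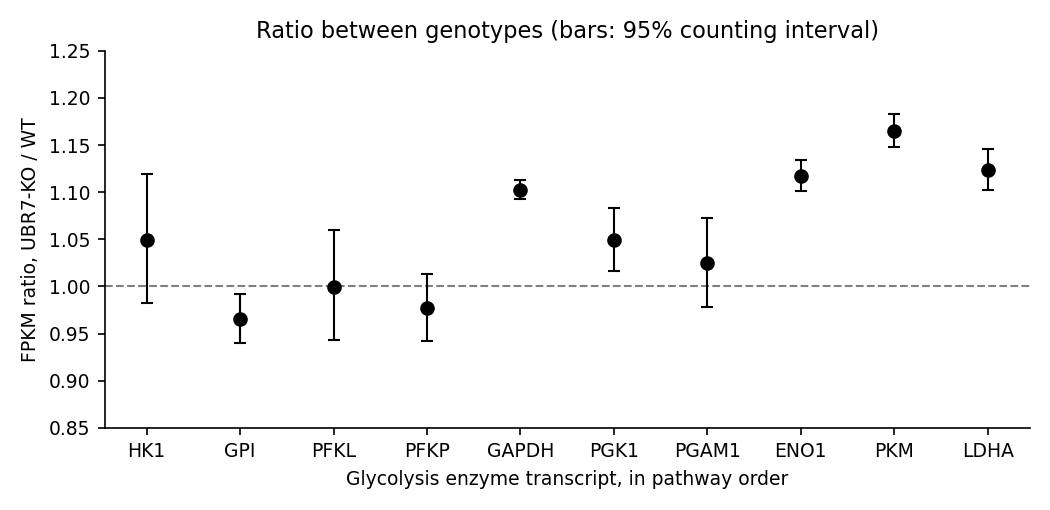
Ratio of FPKM in UBR7-KO to FPKM in WT for each transcript (points), with the 95% interval from recovered reads (bars, counting error only) and equal levels as a dashed line. The interval lies above 1 for 5 transcripts (GAPDH, PGK1, ENO1, PKM and LDHA), below 1 for GPI and includes 1 for HK1, PFKL, PFKP and PGAM1.

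The steps before and after the split of the sugar were also set side by side. Of the 4 transcripts up to phosphofructokinase, 1 was higher and 3 were lower in UBR7-KO, with a median log2 difference of -0.017 and summed levels of 493 FPKM in WT and 481 FPKM in UBR7-KO. Only the interval of GPI excluded equal levels among these 4. Of the 6 transcripts from GAPDH onwards, 6 were higher, against 52.3% of the transcripts with at least 10 FPKM in both genotypes, with a median log2 difference of 0.15 and summed levels of 4861 and 5416 FPKM. This grouping was made after the values were seen and was not tested, and it depends on the scaling: all 10 were higher after median centring, which adds 0.09 to every log2 difference, and GAPDH was lower after quantile normalization.

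Across the 3 scalings, the sign was the same for 6 transcripts (HK1, PGK1, PGAM1, ENO1, PKM and LDHA), which were higher in UBR7-KO each time. Centring adds 0.09 to every difference, so for these 6 only quantile normalization could have changed the sign. The sign changed for the other 4, of which GPI, PFKL and PFKP were lower as deposited and higher after median centring. PKM ranged from 0.12 to 0.32 on the log2 scale over the scalings and LDHA from 0.15 to 0.26, while PGAM1 came as low as 0.0053.

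**Figure D3:**
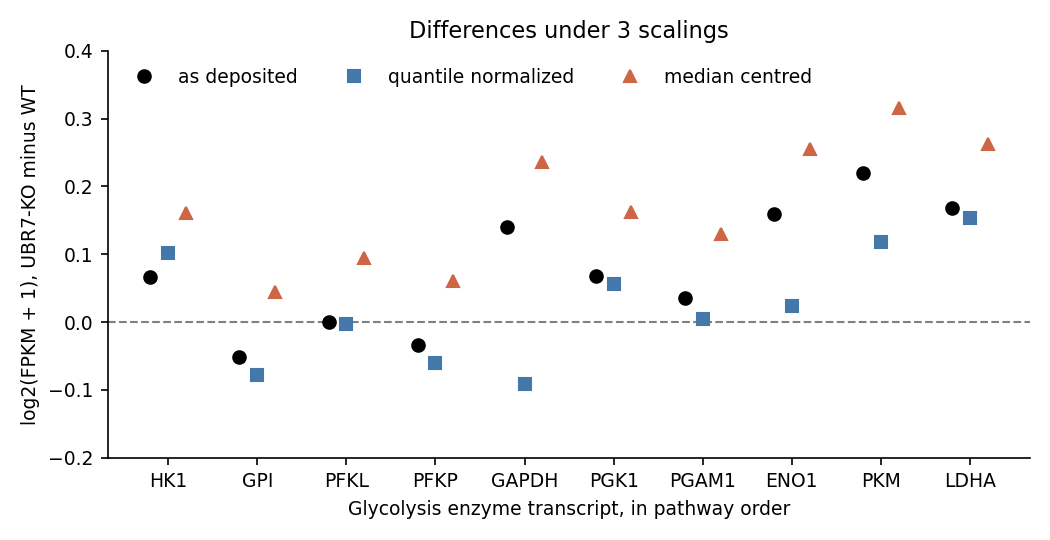
Difference in log2(FPKM + 1) between UBR7-KO and WT for each transcript as deposited (circles), after quantile normalization (squares) and after median centring (triangles), with equal levels as a dashed line. PKM and LDHA lie above 0.1 under all 3 scalings, whereas GAPDH moves from 0.24 after centring to -0.09 after quantile normalization.

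Summed over the 10 transcripts, the levels were 5354 FPKM in WT and 5897 FPKM in UBR7-KO, which is 0.144% and 0.155% of the summed FPKM of all transcripts. Each enzyme is 1 transcript in this sum, while the total holds all 208848 rows, so these are not shares of whole genes. The sum in UBR7-KO was 1.10 times that in WT as deposited, compared with 1.03 times over all transcripts, and without GAPDH the ratio was also 1.10. The direction depends on the scaling, since after quantile normalization the ratio was 0.991 over the 10 and 1.04 without GAPDH.

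The glycolysis transcripts were among the abundant ones. In WT, the level exceeded that of 80.3% of the transcripts compared for HK1 and 99.9% for GAPDH, with a median of 97.6% over the 10. The differences of transcripts with at least 10 FPKM in both genotypes were centred near 0, with a median of 0.016 on the log2(FPKM + 1) scale, and the middle 50% of them lay between -0.19 and 0.21. The differences of 9 of the 10 glycolysis transcripts lay inside that range, and PKM, at 0.22, lay just outside it. PKM was also the only 1 of the 10 that differed by more than the median size of difference among these transcripts. Past the fold limit of 2, 0.025% of these abundant transcripts were higher and 0.279% lower, and past a limit of 1 these shares were 0.496% and 1.78%. The position of the glycolysis transcripts in the ranking of differences therefore depends on the transcripts they are set against: their median percentile was 67.2 among all transcripts compared and 57.0 among the abundant ones.

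**Figure D4:**
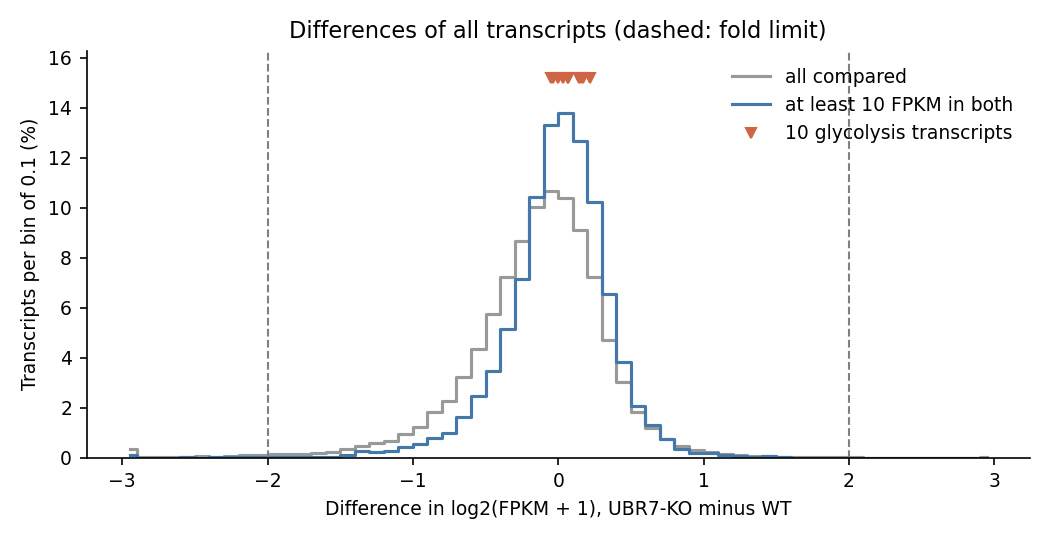
Share of transcripts (percent per bin of 0.1) by difference in log2(FPKM + 1) between UBR7-KO and WT, for all 116955 transcripts compared (grey) and for the 48003 with at least 10 FPKM in both genotypes (blue), with the fold limit of 2 dashed. The outermost bins also hold all larger differences, and the 10 glycolysis transcripts (triangles) lie near the centre, between -0.05 and 0.22.

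Each enzyme stands here for 1 transcript, and the rows listed next to it in the table hold other identifiers. Within 5 rows on either side of the 10 transcripts, 80 of the 100 rows reached 1 FPKM in either genotype. Their differences ranged from -0.59 to 0.53 on the log2(FPKM + 1) scale, and 0 of them reached a difference of 1. The table does not name their genes, so whether they belong to the same enzyme was not looked up, and reads counted on several rows would make their values dependent.

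Around PKM, all 10 rows compared (325 to 693 FPKM in WT) were higher in UBR7-KO, by 0.12 to 0.23. Around LDHA, 9 of 9 (4.50 to 735 FPKM in WT) were higher, by 0.047 to 0.43. The rows around GPI went the other way, with 10 of 10 lower, from -0.20 to -0.033, as did 6 of 6 around PFKP, from -0.17 to -0.028. Around GAPDH, 7 were higher and 2 lower. The 2 lower rows had 30.0 and 31.3 FPKM in WT. The rows listed after GAPDH, at 601 to 3666 FPKM in WT, were all higher, by 0.11 to 0.14. Around PGAM1, 7 of 8 were higher, with a median of 0.31, against 0.035 for PGAM1 itself. Their WT levels went from 7.44 to 118 FPKM. The row at 118 FPKM, the closest to PGAM1 in level, differed by 0.016. Around ENO1, 6 were higher and 3 lower, from -0.070 to 0.16, with a median of 0.063, against 0.16 for ENO1 itself. The rows around PGK1 were mixed, with 5 higher and 2 lower, from -0.15 to 0.14. Their WT levels went from 4.12 to 229 FPKM, while the PGK1 transcript described here had 84.1 FPKM. Beside HK1, 4 were higher and 2 lower, from -0.59 to 0.076, and beside PFKL, 1 was higher and 5 lower, from -0.047 to 0.53. Rows that share reads are not independent, so these counts of rows add no support for a difference of the enzyme. The values describe single transcripts, and levels of whole genes were not computed.

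**Figure D5:**
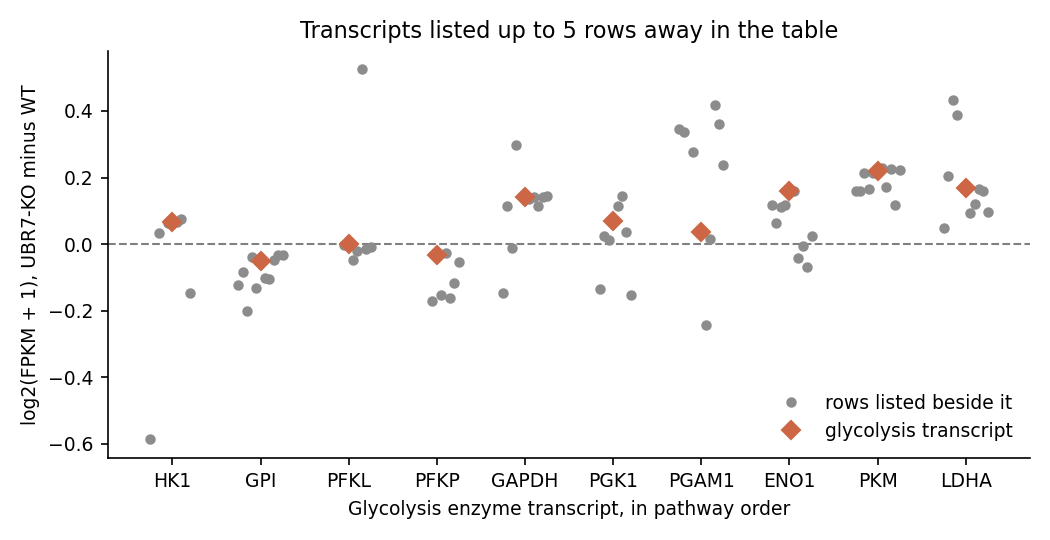
Difference in log2(FPKM + 1) between UBR7-KO and WT for each glycolysis transcript (diamonds) and for the transcripts listed up to 5 rows away that reached 1 FPKM in either genotype (grey points, offset by their place in the table). All grey points around PKM and LDHA lie above 0, and all of those around GPI and PFKP lie below 0.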

How the data were processed

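RNA of 3 WT and 3 Alb-Cre;UBR7fl/fl samples was sequenced on the Illumina HiSeq platform. The submitters' processing notes name CASAVA 1.8, TopHat2 2.0.6 and GRCh38, and the methods of the study name Bowtie2, the human reference genome and DESeq2. The counting tool, annotation release and filters are not given in the sources used here. The authors deposited FPKM values in 1 column per genotype, both of which were used.

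The 10 transcripts were matched by the identifier before the dot. Their gene names come from a list of identifiers, were not checked against a human annotation, and, like the fold limit, were chosen with earlier results of these data known. The rule was to name all 10, in pathway order, and other glycolysis genes and cell type markers only if a table paired them with transcript identifiers, so these are not reported here. Transcripts under 1 FPKM in both columns were left out of the comparison. Differences were taken on log2(FPKM + 1), which understates changes of low transcripts. With 1 value per genotype, no model could be fitted.

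Read totals are the largest for which at least 70% of the lowest values equal 1 read on a whole-number length, within 0.05 of a length. The smallest length and reads that gave both values of a transcript were then taken, given these totals. These steps were run on simulated data with 1 library per column, and the outcome is not given here. A mean of several libraries was not simulated, so how the steps act on such columns is unknown. The values were also computed after median centring, after quantile normalization, with a fold limit of 1, with a pseudocount of 0.1, without a filter, with both columns required to reach 1 FPKM, and for the sum without the highest transcript. The comparison with transcripts of at least 10 FPKM in both columns was added after the data were seen, as were the neighbouring rows. The scripts ran under Python 3.11.15 with scipy 1.17.1, pandas 2.3.3 and numpy 2.4.6, and figures were drawn with matplotlib 3.10.9.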

Additional observations from a re-analysis of the deposited data

How the results depend on the processing

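No paired analysis was possible because each genotype has a single column, and leaving out each sample in turn was not run for the same reason. None of the 10 glycolysis transcripts passed the fold limit under any alternative that was run. Their median log2 difference of 0.07 became 0.16 after median centring and 0.015 after quantile normalization. Centring adds 0.09 to every difference by construction, and for quantile normalization the cause was not tested. The ratio of the summed levels went from 1.10 to 0.991 with quantile normalization, an alternative added after seeing the data. Single transcripts ranged from 0.04 to 0.32 after centring and from -0.09 to 0.15 after quantile normalization. The pseudocount of 0.1 moved each of the 10 by less than its counting interval. The filters and the fold limit cannot change the difference of a transcript.

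Over all transcripts, 90 were higher and 1037 lower past the limit of 2. These counts were 429 and 2890 with a pseudocount of 0.1, 32 and 512 with at least 1 FPKM in both columns, 1013 and 5615 with a limit of 1, and 12 and 134 with at least 10 FPKM in both columns, a choice made after seeing the data. The median percentile of the glycolysis transcripts by difference moved from 67.2 to 57.0 under that last choice. The totals of 24495956 and 14197506 reads limit HK1 most, which had the fewest recovered reads of the 10, 2415 and 1468.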
